A study of Mus musculus with 4 samples.

Results

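Microglia labelled MG by the authors in the wildtype midbrain library were compared with those of the wildtype frontal cortex library, 1158 and 1912 cells, or 3070 of the 21644 cells of the series. The cells were chosen by that deposited type label and by library, with no measured value of this comparison. Single cells were profiled with 10x Genomics 3' v3 chemistry from frontal cortex and midbrain, after a dissociation aimed at adult glial and vascular cells. The wildtype mice were C57BL/6 littermates and the transgenic mice carried the strain label Hua-Syn(A53T), all of age 6 to 9 months. Each of the 4 combinations of region and genotype was 1 library. The series text counts 3 mice in a group, whereas the mouse number label is 3 for frontal cortex and 0 for midbrain, and cells are not assigned to mice. With 1 library a side there is no replicate check: intervals are exact 95% intervals (Clopper-Pearson) that cover counting error only, and region cannot be told apart from library.

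Microglia are the resident macrophages of the brain. They survey the tissue through purinergic and chemokine receptors, clear debris and synapses through complement, Fc receptors and Trem2, and answer injury or microbial products through NF-kB and interferon programmes. The balance of these programmes is known to vary between brain regions, and dissociation itself is known to induce immediate early genes and chemokines in these cells.

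Microglia made up 30.6% of cells in wildtype frontal cortex (29.5 to 31.8) and 15.2% in wildtype midbrain (14.4 to 15.99). The dissociation and the capture set such shares, so they describe the libraries. Microglial counts summed to 14227370 unique molecules (UMIs) in frontal cortex and 7658431 in midbrain. Median UMIs per microglial cell were 7373 and 6749, and median mitochondrial shares were 2.02% and 2.18%. The wildtype libraries shared 15 cell barcodes, of which 3 were microglia in both. The transgenic libraries, which held 1445 and 806 microglia, are set beside the wildtype pair as other libraries of the same regions, not as replicates.

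The label was checked on P2ry12, a purinergic receptor of microglial processes, and Tmem119, a microglial surface protein. P2ry12 stood at 2561 counts per 1000000 UMIs (CPM) in frontal cortex microglia and 2005 in midbrain microglia, against 41.6 and 15.8 in all other cells of those libraries. Tmem119 stood at 1270 and 1124 CPM, against 19.3 and 8.75 in other cells. Both genes were therefore far above other cells in either region, and both were lower in midbrain, with log2 ratios of midbrain over frontal cortex of -0.35 and -0.18. Over the authors' clusters P2ry12 ran from 1675 to 3130 CPM in frontal cortex and from 1063 to 2901 in midbrain, so the regions overlapped.

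RNA of other cell types was present in these cells and differed between the libraries. Summed astrocyte markers stood at 198 CPM in frontal cortex microglia and 1001 in midbrain microglia, with 14 of 14 higher in midbrain. Summed endothelial markers stood at 1965 and 1099 CPM, with 15 of 15 lower in midbrain. By the rule for lists given below, 11.4% of all measured genes were higher and 8.75% lower. Choroid plexus markers stood at 14.6 and 4940 CPM, and Kcne2, Prlr, Slc4a5 and Otx2 among them were at 0 in frontal cortex. Frontal cortex cluster 8, with 172 cells, held 59.0% of the endothelial marker UMIs, and midbrain cluster 16, with 156 cells, held 56.3% of the astrocyte marker UMIs. Their median depths were 3375.5 and 1995 UMIs. The median cell of frontal cortex cluster 8 held 4 endothelial marker UMIs, against 6 in clusters 2, 3 and 7. The median cell of midbrain cluster 16 held 1 astrocyte marker UMI, against 2 in clusters 2 and 15 and 1 in cluster 21. The high sums of these clusters thus rest on a part of their cells, and they are called rich in other cells' RNA below by these sums. Without these clusters the astrocyte sums were 159 and 477 CPM and the endothelial sums 869 and 806 CPM. Choroid plexus UMIs were spread over every midbrain cluster, with medians of 16 to 22 per cell against 0 in every frontal cortex cluster. Ttr, the thyroid hormone carrier secreted by choroid plexus, was found in 99.9% of midbrain microglia thinned to 3000 UMIs and in 99.3% of midbrain endothelial cells, against 3.16% and 2.65% in frontal cortex. Unthinned, its shares in microglia were 99.9% and 8.32%, and for this gene, which endothelial cells should lack, a share like theirs is read as background. Markers of border macrophages, the neighbouring macrophages of meninges and vessels, summed to 224 and 183 CPM. In frontal cortex their members Lyve1 and Cd209f were at 0.

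**Figure D1:**
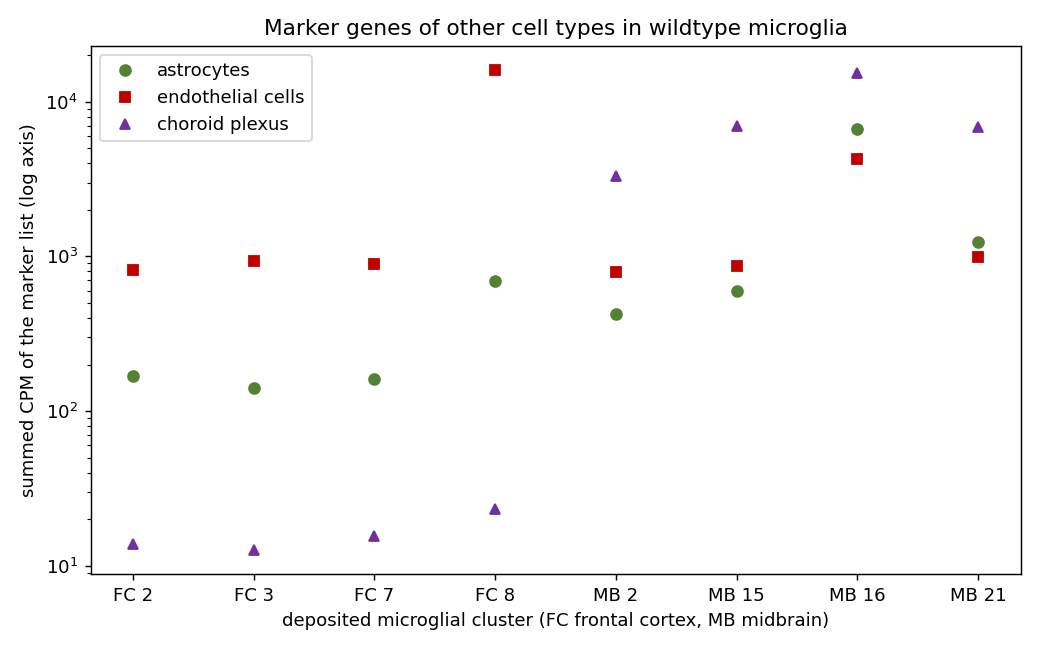
Summed CPM of astrocyte, endothelial and choroid plexus marker lists (log axis) in each deposited microglial cluster of the wildtype libraries. Endothelial markers peak in frontal cortex cluster 8, astrocyte markers in midbrain cluster 16, and choroid plexus markers are high in all 4 midbrain clusters.

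Of 6643 genes with at least 20 CPM in a library, 164 (2.47%) were at least 1.5 times higher in midbrain microglia and 66 (0.994%) at least 1.5 times lower. Without frontal cortex cluster 8 and midbrain cluster 16, 125 (1.91%) were higher and 25 (0.382%) lower of 6543 genes. Of the 164 higher genes 115, and of the 66 lower genes 52, were led by other cells, that is, they stood higher in the pooled other cells than in microglia of the same library. The astrocyte-rich genes Itih3 and Slc7a10 had log2 ratios of 4.5 and 3.8. The endothelial gene Cxcl12, a chemokine, stood at 99.7 against 30.2 CPM, a ratio of -1.73 that was -0.42 without the pair of clusters. Of the 52 lower genes led by other cells, 9 stayed past 1.5 times without those clusters. The genes named below as furthest apart were therefore taken from those led by microglia. The gene lists further below were not limited in this way and also hold members led by other cells. Of the genes led by microglia, 49 of 3728 (1.31%) were higher and 14 (0.376%) lower. These counts were 71 and 40 in cells thinned to 3000 UMIs, and 42 and 33 without the 10 highest cells of each gene, so the lower count in particular moved with the setting.

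The 15 microglia-led genes named as furthest above frontal cortex had ratios of 1.04 to 1.73. Tnf, the tumour necrosis factor cytokine, stood at 147 CPM in wildtype frontal cortex, 390 in wildtype midbrain, 281 in transgenic frontal cortex and 393 in transgenic midbrain. Both midbrain libraries were above both frontal cortex libraries, and the wildtype frontal cortex library was the lowest. The log2 ratio was 1.40 (1.32 to 1.49) in the wildtype pair and 0.48 (0.40 to 0.56) in the transgenic pair. Gadd45b, a stress-induced growth arrest protein, stood at 70.9 and 173 CPM in the wildtype pair and 96.2 and 113 in the transgenic pair. Its ratios were 1.29 and 0.23. Hcar2, the receptor for ketone bodies and niacin, had the largest ratio of these 15, 1.73 (1.37 to 2.10), from 7.03 and 23.4 CPM, on 100 and 179 UMIs. In the transgenic pair it stood at 22 and 26.1 CPM, a ratio of 0.24 whose interval held 0.

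Other genes were past 1.5 times in the transgenic pair as well. Emp3, a small membrane protein, stood at 22.8 and 61.2 CPM in the wildtype pair and 28.5 and 64.5 in the transgenic pair, with ratios of 1.42 (1.22 to 1.63) and 1.18 (0.96 to 1.40). Adamts1, a secreted metalloproteinase, stood at 329 and 735 CPM in the wildtype pair and 423 and 923 in the transgenic pair, with ratios of 1.16 and 1.13. Adamts1 is no marker of microglia: it stood at 319 and 230 CPM in the other cells of the wildtype libraries, and after thinning 51.0% and 52.9% of endothelial cells held a UMI of it, against 22.7% and 35.5% of microglia. Marcksl1, a regulator of the actin cytoskeleton, had ratios of 1.04 and 1.05, and the transcription factor Egr3 1.24 and 1.23. Tnfsf13b, the B cell survival factor BAFF, stood at 23.1 and 54.8 CPM in the wildtype pair and 31.8 and 56.1 in the transgenic pair. For these 5 genes both midbrain libraries were above both frontal cortex libraries.

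The other higher genes were Gpr65, a proton-sensing receptor, Ipcef1, Bcl2a1a, a survival factor of the Bcl2 family, the kinase Pim1, the phosphatase Dusp2, Arl5c and Ifi27l2a. Their wildtype ratios ran from 1.04 for Dusp2 to 1.45 for Gpr65. Bcl2a1a has near-identical copies, so its reads may be split by the counting. Ifi27l2a, an interferon-stimulated gene, stood at 15.3 and 38.0 CPM in the wildtype pair and 60.9 and 29.8 in the transgenic pair, so the regions were in opposite order. Of the 15 genes, 13 had the same sign in the transgenic pair and 8 were past 1.5 times there. Of all 6568 genes of that pair, those led by other cells included, 1.69% were that far above 0. Among all microglia-led genes 49.8% were above 0 in that pair. In endothelial cells of the wildtype libraries 10 of these 15 genes had the same sign as in microglia. The share over all genes there is not given here, and the part of the library in these ratios was not tested.

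The 15 microglia-led genes named as lower in midbrain had ratios of -0.90 to -0.55. Fcrls, an Fc receptor-like protein typical of microglia (GRCm38 chr3:87250758-87263738), stood at 1863 CPM in wildtype frontal cortex, 1152 in wildtype midbrain, 1847 in transgenic frontal cortex and 1180 in transgenic midbrain. The frontal cortex libraries lay together and the midbrain libraries lay together, with ratios of -0.69 (-0.73 to -0.66) and -0.65 (-0.69 to -0.61). Lag3, an immune checkpoint receptor (GRCm38 chr6:124904361-124911705), stood at 306 and 190 CPM in the wildtype pair and 347 and 217 in the transgenic pair, ratios of -0.69 and -0.68. Upk1b, a tetraspanin, stood at 95.2 and 52.5 CPM in the wildtype pair and 67.0 and 46.7 in the transgenic pair. Myo18b, an unconventional myosin, had the lowest ratio of these 15, -0.90 (-1.20 to -0.61), from 30.4 and 16.3 CPM.

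The other lower genes were Gfm2, Bank1, Tlr12, Rapsn, Fcrl1, Lilra5, Dtx3l, Prkce, Ms4a6b, Snn and Tnfrsf17. Bank1 is a signalling adaptor best known in B cells, and Tlr12 is an endosomal Toll-like receptor. The ratios of these 11 genes ran from -0.81 for Gfm2 to -0.55 for Tnfrsf17. Gfm2 overlaps Nsa2, Dtx3l overlaps Parp9 and Snn overlaps Litaf on the other strand. Whether the counting used strand is not given in the sources used here, so reads of Gfm2, Dtx3l and Snn may include reads of genes that overlap them. Of the 15 lower genes 11 were past 1.5 times. In the transgenic pair 15 had the same sign, against 50.2% of microglia-led genes below 0 there. Past 1.5 times in that pair were 5, where 1.4% of 6568 genes, those led by other cells included, were that far below 0. In endothelial cells of the wildtype libraries 13 of the 15 lower genes had the same sign as in microglia. The part of the library in these ratios was not tested either.

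**Figure D2:**
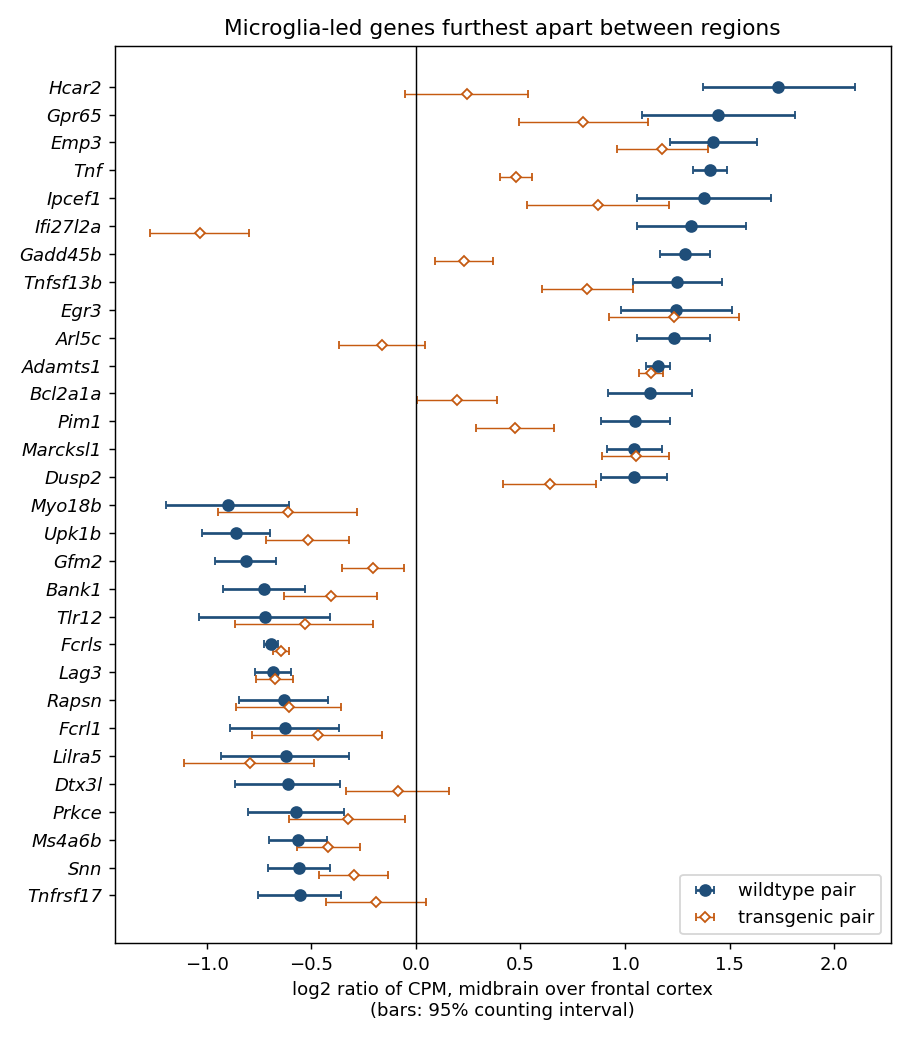
Log2 ratio of CPM, midbrain over frontal cortex, for the 15 microglia-led genes named as higher and the 15 named as lower. The wildtype pair (filled circles) and the transgenic pair (open diamonds) are shown with 95% counting intervals. The naming rule has further filters, so some microglia-led genes further from 0 are left out. All 15 lower genes lie below 0 in both pairs, while Ifi27l2a and Arl5c lie above 0 in the wildtype pair and below 0 in the transgenic pair.

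The authors' clusters were made separately in each region and are not matched between them. In frontal cortex, clusters 2 and 7 were led by Ccl4, Ccl3 and Tnf and by Egr1, and cluster 3 by P2ry13, Gpr34 and P2ry12. Clusters 2, 3 and 7 held 40.4%, 26.3% and 24.3% of its microglia. In midbrain, cluster 2 was led by Il1a, Ccl4 and Tnf and cluster 15 by Adora3, Gpr34 and Upk1b, and they held 62.9% and 15.3%. Between frontal cortex cluster 3 and midbrain cluster 15, P2ry12 stood at 3130 and 2901 CPM and Tmem119 at 1433 and 1407. The part of this cluster make-up in the pooled ratios, those of the homeostatic, NF-kB and other lists included, was not tested. Tnf ran from 54.5 to 230 CPM over the frontal cortex clusters and from 8.94 to 484 over the midbrain clusters, so the regions overlapped. Emp3 ran from 15.6 to 24.9 CPM in frontal cortex clusters and from 57.2 to 89.4 in midbrain clusters. Tnfsf13b ran from 17.5 to 26.2 and from 30.9 to 61.3 CPM. For Emp3 and Tnfsf13b, 2 of the 15 higher genes, every midbrain cluster was above every frontal cortex cluster, against 0.215% of microglia-led genes. Lag3 ran from 240 to 329 CPM in frontal cortex clusters and from 158 to 197 in midbrain clusters. Every midbrain cluster was below every frontal cortex cluster for Lag3, Myo18b, Tlr12, Dtx3l and Prkce. These were 5 of the 15 lower genes, against 3.25% of microglia-led genes. The 15 genes each way were picked by the pooled ratio of these same cells, which favours such separation. No conclusion is therefore drawn from their shares. Myo18b and Tlr12 were at 0 CPM in the lowest midbrain cluster. Dtx3l and Prkce are not particular to microglia: other cells stood at 24.3 and 15.1 CPM for Dtx3l and 29.5 and 21.9 for Prkce, and similar shares of endothelial cells held a UMI (9.80% and 9.91% for Dtx3l, 9.90% and 9.91% for Prkce). Midbrain clusters 16 and 21 held 647220 and 223770 UMIs, so a gene near 20 CPM rests on few UMIs there. Fcrls overlapped, with 1245 to 2201 CPM in frontal cortex clusters and 807 to 1541 in midbrain clusters.

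**Figure D3:**
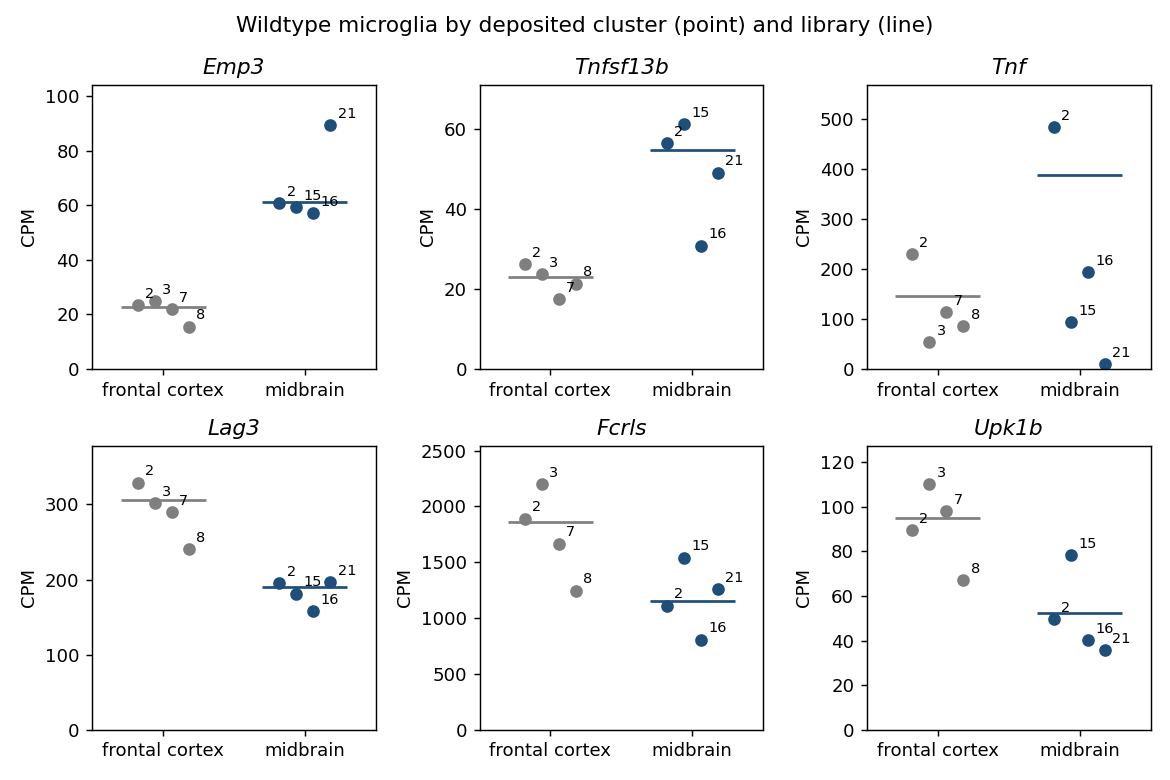
CPM of 6 genes in each deposited microglial cluster (points, with cluster numbers) and in the whole library (lines) of wildtype frontal cortex and midbrain. The regions do not overlap for Emp3, Tnfsf13b and Lag3 and overlap for Tnf, Fcrls and Upk1b.

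Homeostatic genes, which mark surveying microglia, had a median log2 ratio of -0.21, against -0.03 over all 12851 measured genes. List members were called from 1.2 times upwards where the counting interval did not include 0. By that rule 8 of 25 were lower and 1 higher, against 8.75% lower and 11.4% higher of all measured genes. Cx3cr1, the fractalkine receptor, stood at 5178 and 4284 CPM, a ratio of -0.27. The lectin Siglech had a ratio of -0.41, the crystallin Crybb1 -0.54 and the receptor Gpr34 -0.34. The 1 higher member was Gpr84, a receptor for medium-chain fatty acids, at 94.9 and 135.9 CPM. Gpr84 was among the leading genes of cluster 2 in both regions, beside Ccl4, Ccl3, Tnf and Il1a. It was not among those of frontal cortex cluster 3 or midbrain cluster 15. In the transgenic pair the list's median was -0.10, with 4 lower and 0 higher, against 10.1% lower and 7.33% higher of all genes measured there. Without the 2 clusters rich in other cells' RNA it again had 8 lower and 1 higher, against 7.32% and 10%.

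Transcription factors of microglia had a median of -0.05, with 2 higher and 3 lower of 19, against the same 11.4% and 8.75% of all genes. Spi1, the factor PU.1, stood at 362 and 358 CPM, and Sall1 at 331 and 287. Cebpb, a factor of inflammatory gene expression, stood at 258 and 501 CPM in the wildtype pair, a ratio of 0.95, and at 335 and 302 in the transgenic pair, a ratio of -0.15. The order of the regions was thus opposite for Cebpb. Maf stood at 788 and 561 CPM, a ratio of -0.49.

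Of 26 NF-kB feedback and signalling genes 15 were higher in midbrain and 0 lower, against 11.4% and 8.75% of all genes, with a median of 0.34. Without the 2 clusters rich in other cells' RNA the median was 0.43. In the transgenic pair the median was 0.32 with 15 higher and 1 lower, against 7.33% and 10.1%. Endothelial cells of the same wildtype libraries had a median of 0.07 for this list. After thinning, 13.3% and 17.4% of endothelial cells held a UMI of Nfkbiz. These shares were 6.32% and 9.42% for Gadd45b and 94.4% and 95.3% for Nfkbia. The part of the library in the ratios of this list was not tested. In microglia Nfkbia, the inhibitor that NF-kB induces to end its own activity, stood at 1380 and 1827 CPM, a ratio of 0.40 in both genotypes. Nfkbiz, an atypical co-factor of NF-kB, stood at 355 and 584 CPM, with ratios of 0.72 and 0.77. Tnfaip3, the ubiquitin-editing brake on the pathway, stood at 206 and 301 CPM, with ratios of 0.55 and 0.64. Rela, the subunit itself, stood at 78.8 and 79.8 CPM. The inflammasome sensor Nlrp3 stood at 78.1 and 151 CPM in the wildtype pair and 79.0 and 160 in the transgenic pair, and Casp4 at 61.7 and 105 and at 79.8 and 134. Of the 25 Toll-like receptor and inflammasome genes to which they belong, 5 were higher and 1 lower, against 11.4% and 8.75%, with a median of 0.01.

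Cytokines and chemokines had a median of 0.28 with 11 of 20 higher and 2 lower, against 11.4% and 8.75% of all genes. With each cell weighted alike the median was 0.12, and in the transgenic pair it was 0.02 with 5 higher and 5 lower, against 7.33% and 10.1%. Il1b stood at 19.6 and 39.8 CPM and Il1a at 212 and 305. The abundant chemokines Ccl3 and Ccl4 were closer, at 2169 and 2483 CPM and at 4783 and 5002 CPM. Il18 was lower, at 49.7 and 40.0 CPM.

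Immediate early genes, induced within minutes of a stimulus, had a median of 0.24 with 17 of 35 higher and 1 lower, against 11.4% and 8.75% of all genes. The transgenic median was 0.49 with 21 higher and 0 lower, against 7.33% and 10.1%. Egr1 stood at 1531 and 2840 CPM in the wildtype pair and 1219 and 2668 in the transgenic pair. Fos stood at 2084 and 2947 CPM in the wildtype pair and Ier2 at 515 and 890. Jun, the most abundant of those named, stood at 8191 and 8661 CPM, a ratio of 0.08. Endothelial cells of the same wildtype libraries had a median of 0.29 for this list, and Fos and Fosb had ratios of 1.02 and 1.26 there. The order of regions in these genes was thus seen in another cell type of the same libraries, and the part of the library in it was not tested.

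Interferon response genes differed in order between the genotypes. The wildtype median was 0.22 with 12 of 40 higher and 1 lower, against 11.4% and 8.75% of all genes, and 0.46 without the 2 clusters. The transgenic median was -0.87 with 1 higher and 31 lower of 41, against 7.33% and 10.1%. Ifi204, a DNA sensor of the same family as Ifi207, stood at 5.06 and 19.1 CPM in the wildtype pair and 27.4 and 14.96 in the transgenic pair. Isg15, a ubiquitin-like modifier, stood at 20.4 and 28.7 CPM, a wildtype ratio of 0.50 (0.24 to 0.75), with -0.63 in the transgenic pair. Cxcl10, which also answers NF-kB, was higher in midbrain in both pairs, with ratios of 0.53 and 0.19. Ifi204 and Ifi207 are close relatives whose reads may be split.

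**Figure D4:**
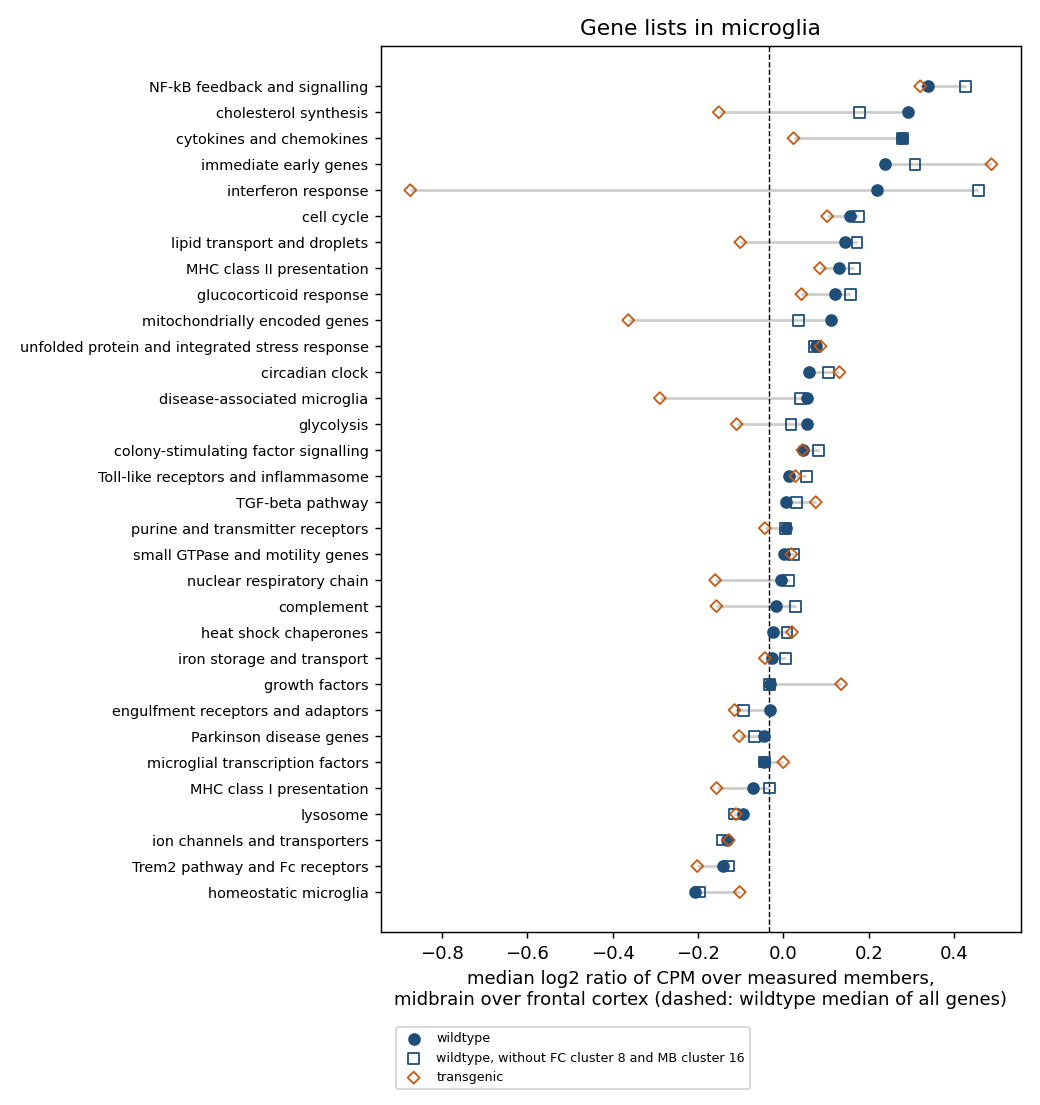
Median log2 ratio of CPM, midbrain over frontal cortex, over the measured members of each gene list in wildtype microglia (filled circles), the same without the 2 clusters rich in other cells' RNA (open squares) and transgenic microglia (open diamonds). Interferon genes lie at 0.22 in the wildtype pair and -0.87 in the transgenic pair, and NF-kB genes at 0.34 and 0.32.

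Promoters of genes in these lists were searched on both strands from 250 bases before to 50 after the start (RefSeq, GRCm38.p6). The NF-kB motif was found in 2 of 22 NF-kB genes and 4 of 17 cytokine genes, against 0.466% of 27025 symbols. The interferon-stimulated response element was found in 21 of 34 interferon genes, against 3.99% of symbols. The lists hold known targets of both, so these shares describe the lists. Promoters of Nfkbia, Cxcl2 and Csf1, with wildtype ratios of 0.40, 1.46 and 0.29, are shown for the NF-kB motif, and that of Isg15 for the response element. The NF-kB motif was also found for Nfkb2, Il6 and Cxcl1, which were not called higher. It was not found for Tnf, Il1a, Tnfaip3 or Gadd45b, which were called higher. The promoters shown therefore do not tie the motif to the ratios. Capitals mark the matched letters, each sequence is read 5′ to 3′ on the gene's strand, and the Isg15 matches overlap.
Nfkbia, chr12:55492598-55492897, minus strand: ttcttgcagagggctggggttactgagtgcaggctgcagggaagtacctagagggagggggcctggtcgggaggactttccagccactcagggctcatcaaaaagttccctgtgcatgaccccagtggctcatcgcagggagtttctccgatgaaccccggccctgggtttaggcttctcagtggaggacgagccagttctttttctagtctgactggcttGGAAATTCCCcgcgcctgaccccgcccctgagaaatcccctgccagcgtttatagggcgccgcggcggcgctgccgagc
Cxcl2, chr5:90903649-90903948, plus strand: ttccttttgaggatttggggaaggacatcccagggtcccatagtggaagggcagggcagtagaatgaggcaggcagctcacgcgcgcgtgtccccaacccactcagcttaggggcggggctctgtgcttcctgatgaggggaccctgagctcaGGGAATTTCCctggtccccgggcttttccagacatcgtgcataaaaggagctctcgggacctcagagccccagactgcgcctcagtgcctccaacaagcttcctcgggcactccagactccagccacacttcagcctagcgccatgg
Csf1, chr3:107760420-107760719, minus strand: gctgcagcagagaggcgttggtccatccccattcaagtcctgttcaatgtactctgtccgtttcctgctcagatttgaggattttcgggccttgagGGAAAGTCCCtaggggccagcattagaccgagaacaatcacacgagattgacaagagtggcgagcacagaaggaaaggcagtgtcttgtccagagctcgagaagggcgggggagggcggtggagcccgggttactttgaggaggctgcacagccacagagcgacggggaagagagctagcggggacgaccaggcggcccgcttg
Isg15, chr4:156200769-156201068, minus strand: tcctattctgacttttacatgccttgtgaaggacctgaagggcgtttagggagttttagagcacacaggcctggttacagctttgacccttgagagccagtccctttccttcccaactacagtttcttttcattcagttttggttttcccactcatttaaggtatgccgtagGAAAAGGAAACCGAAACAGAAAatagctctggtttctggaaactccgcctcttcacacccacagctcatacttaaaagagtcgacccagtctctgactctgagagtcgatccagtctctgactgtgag
The match is a run of letters in the window and no measure of binding.

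The Trem2 pathway and Fc receptors, which serve phagocytosis, had a median of -0.14 with 1 higher and 3 lower of 15, against 11.4% and 8.75% of all genes. Trem2 stood at 2539 and 2318 CPM and its adaptor Tyrobp at 2138 and 1939, both short of 1.2 times. Fcgr3, an activating receptor for antibodies, was lower, at 864 and 672 CPM. The complement subunits C1qa and C1qb had ratios of -0.08 and -0.06. Lysosomal genes had a median of -0.09 with 0 higher and 3 lower of 35, against the same shares. Genes of MHC class I presentation had a median of -0.07 with 4 higher and 2 lower of 23, against the same shares. Those of MHC class II presentation had a median of 0.13 with 4 higher and 0 lower of 11, against 11.4% and 8.75% of all genes. H2-Ab1, a class II chain, stood at 7.17 and 19.2 CPM. Cd74, the invariant chain of MHC class II, stood at 22.7 and 49.5 CPM in the wildtype pair and 32.5 and 38.4 in the transgenic pair. The class II chain H2-Aa stood higher in other cells than in microglia, at 44.0 and 95.4 CPM in other cells against 0.98 and 7.83 in microglia.

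Disease-associated microglia genes had a median of 0.06 with 9 higher and 2 lower of 24, against 11.4% and 8.75% of all genes. The 9 include Spp1, whose direction reversed in cells with few border macrophage UMIs and without its highest cells. The transgenic median was -0.29 with 0 higher and 11 lower of 25, against 7.33% and 10.1%. Apoe, the lipid carrier, stood at 587 and 1701 CPM in wildtype microglia, a ratio of 1.53. It stood at 6591 and 9726 CPM in other cells of those libraries, and the ratio was 1.28 without the 2 clusters and 0.02 in the transgenic pair. Fabp5 and Axl had ratios of 1.98 and 2.08, on 93 and 197 UMIs and on 48 and 109 UMIs. The part of other cells' RNA in these ratios was not tested. Cd68, a lysosomal glycoprotein, was lower, at 484 and 379 CPM, and Cst7, a cathepsin inhibitor, stood at 13.8 and 10.1 CPM. Cholesterol synthesis genes had a median of 0.29 with 9 higher and 2 lower of 21, against 11.4% and 8.75%. Their median was 0.18 without the 2 clusters and -0.15 in the transgenic pair. Genes of the nuclear respiratory chain had a median of -0.01 with 0 higher and 1 lower of 50, against the same shares.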

How the data were processed

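UMI counts per gene and cell were taken as deposited by the authors, unscaled whole numbers (19602 frontal cortex and 19956 midbrain features). Cell Ranger 3.0.0, Seurat 3.1.5 and mm10 are named in the submitters' processing notes. Cell filters, doublet treatment and strand use are not given in the sources used here, and no doublet caller was run. The deposited cell tables also give the mitochondrial percent, cluster and type of each cell.

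Counts were summed over the cells labelled MG of each library and scaled to CPM over the 19040 genes in both tables (Python 3.11.15, numpy 2.4.6, scipy 1.17.1). A gene was called at 1.5 times (0.58 on the log2 scale) and 20 CPM in at least 1 library. No test was run, since each group is 1 library. A list's median and counts cover its members from 20 UMIs in the pair upwards. In simulated Poisson sums of 6408 genes, 200 were changed by 2 times, and 100% of these passed 1.5 times in the right direction. Of the intervals 95.5% held the true ratio. The simulation held counting error only, without variation between cells, clusters or libraries and without RNA of other cells. It therefore cannot show how the calls fare against those.

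The members and the gene lists were chosen with earlier results of these data known. The 15 genes furthest each way had at least 20 CPM and 100 UMIs in 1 library, the same direction with TMM factors and with cells weighted alike, a level at least that of the pooled other cells, and no cell with over 20% of the UMIs. Mitochondrial, ribosomal protein, haemoglobin and predicted genes, sex-linked genes of the X-inactivation and Y list, and other cell types' markers were left out. The rule also takes the members furthest apart in each list, P2ry12, Tmem119 and 5 genes each way led by other cells, 207 genes in all. It allows the members that define a list without naming them, so a further 49 list genes (among them Cx3cr1, Gpr34, Sall1, Spi1, Trem2, Tyrobp, C1qa, C1qb, Nfkbia, Nfkbiz, Tnfaip3, Csf1, Il1a, Ccl3, Ccl4, Fos, Fosb, Ier2, Jun, Isg15, Ifi207, Cxcl10, H2-Aa and Spp1) and 14 markers of other cells, such as Ttr, were chosen after their values were seen. The promoters printed, the comparison of cluster ranges and the settings that leave out clusters were chosen after seeing the data too. The values of a further list gene are not reported here.

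Coordinates are from GENCODE for GRCm38, the assembly mm10 names. Alternatives included edgeR 4.0.16 TMM factors and DESeq2 1.42.0 size factors.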

Additional observations from a re-analysis of the deposited data

Results flagged for a closer look

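The order of the regions was opposite in the wildtype and the transgenic pair for Ifi27l2a, an interferon-stimulated gene. Its log2 ratio of midbrain over frontal cortex was 1.32 in wildtype microglia and -1.03 in transgenic microglia. The median of the interferon response list was 0.22 in the wildtype pair and -0.87 in the transgenic pair. Each group was 1 library, so the difference between the pairs was not tested.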

How the results depend on the processing

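Of 64 recomputed counts of genes past the fold, 47 stayed within 1.5 times of the value reported. Genes higher in midbrain numbered 3893 with no filter on low genes, 67 at 50 CPM and 98 at 2 times. Genes lower in midbrain numbered 1621, 32 and 19 under the same settings, 25 without frontal cortex cluster 8 and midbrain cluster 16, 22 without midbrain cluster 21 as well, and 32 in cells with under 4 astrocyte and under 4 endothelial marker UMIs. Microglia-led genes higher numbered 657, 29 and 19 with no filter, at 50 CPM and at 2 times, and lower 450, 7 and 0. Microglia-led lower genes numbered 40 in thinned cells and 33 without each gene's 10 highest cells. The latter setting kept each library's total and took 10 cells per gene from 1912 frontal cortex and 1158 midbrain cells. These 10 are a larger part of the midbrain cells, so the setting itself tends to lower the ratios. The median ratio over all genes was -0.105 there and -0.054 in the main setting. Thinned midbrain sums held 2904000 UMIs, against 7658123 unthinned. The part of these settings in the counts was not tested. The higher share of called genes was 71.3%, 54.95% without each gene's 10 highest cells and 83.3% without the 2 clusters, and 71.9% to 73.5% under other scalings. Direction reversed for Spp1, to -0.63 in cells with under 4 border macrophage UMIs and -0.39 without its 10 highest cells, for Scd2, to -0.11 in cells with few astrocyte and endothelial UMIs, and for Pltp, to 0.085 and 0.066 without the clusters. Cells with under 4 UMIs of all other types' markers numbered 25 and 1, so that planned setting was not run. No paired analysis was possible because each group is 1 library. Genes near 20 CPM rest on few UMIs in midbrain clusters 16 and 21, which held 647220 and 223770 UMIs.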
